A study of Hydra vulgaris with 30 samples.

Results

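Of 51290 transcripts counted in regenerating tips of *Hydra vulgaris*, 8 were chosen by a rule. They were at least 2-fold higher 3 hours post amputation (hpa) than at 0 hpa in control polyps. By 24 hpa they were back near or below their starting level. Their differences under the inhibitor UNC0379 were within the limits given below. The members were selected on these same values. CPM, the counts of a transcript scaled to a library sum of 1e6 assigned counts, were averaged over the 3 libraries of a group, 5 CPM were added to each mean, and log2 changes were taken against 0 hpa of the DMSO control. The rule asked for a highest DMSO mean of at least 30 CPM, which left 3325 transcripts. A log2 change of at least 1 at 3 hpa then left 55 transcripts, a log2 change under 0.5 at 24 hpa left 20, and differences of less than 1 on the log2 scale between UNC0379 and DMSO at 0 hpa, at 24 hpa and on average over 3, 8 and 12 hpa left the 8 members. The DMSO values at 0, 3 and 24 hpa, and the treatment differences, are therefore given below as a description, with no test read from them.

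The polyps were a clonal culture of the Ind-Pune strain, decapitated, with the tips at the cut collected for RNA, so that every group is drawn from 1 clone. The 15 control libraries came from polyps in 0.2% DMSO and the other 15 from polyps in UNC0379, an inhibitor of the histone methyltransferase SETD8, at a labelled dose of 150 µM. Tips were taken at 5 times, from 0 hpa through 3, 8 and 12 hpa to 24 hpa, and each of the 10 groups of treatment and time had 3 libraries. Every group was thus decapitated, and the 0 hpa tips were taken at the cut. In the paper's regeneration assays, treatment with the inhibitor began hours before decapitation. Its account of the RNA libraries does not say when treatment began. The UNC0379 0 hpa tips are labelled with the same dose, so they are not an untreated start. The 3′ mRNA libraries gave 1 stretch near the end of each transcript, and the labels do not tell whether replicate libraries derive from different cultures, so that the spread between them may be technical.

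*Hydra* rebuilds a head from the tissue left below a cut. The wound closes first, while cells at the tip switch on stress and signalling genes, and the same tissue then sets up a new head organizer and, later, tentacles. Transcripts that are high early and low again once the new head has begun to form are the pattern in which wound-response genes are usually sought. The deposited tables give identifiers of 2 kinds, Sc4wPfr for predicted gene models named by their scaffold and MSTRG for models assembled from reads, and pair neither kind with a gene name. Of the 8 members, 0 matched the *Hydra* gene table used here (RefSeq, assembly HydraT2T_AEP), as did 0 of all 51290 identifiers, so that no role is given to any of them, no sequence is shown and the tissue could not be checked against marker genes. Tips hold several cell types, and more cells of a type cannot be told apart from more RNA per cell.

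Assigned counts ran from 146798 to 811079 per library (median 515933), so that 1 count was worth 1.23 to 6.81 CPM. The members carried little of it. Over the 30 libraries, Sc4wPfr_137.g27960.t1 had a median of 648 counts and the other 7 members had medians of 9 to 52 counts, with 5 libraries at 0 for MSTRG.23620.1 and 3 for MSTRG.21881.1. All 8 passed the filter on low counts that left 5046 transcripts for testing. In DMSO 24 hpa replicate 3, 98.2% of the reads were not aligned, against 16.5% in the library with the lowest share. UNC0379 24 hpa replicate 3 was the library with the fewest counts (146798, with 1 count at 6.81 CPM). It had the lowest median correlation with the other libraries of its group (0.754), and 4 members were below both other libraries in it. Sc4wPfr_137.g27960.t1 was at 61.3 CPM there, which was 9 counts, against 859 and 1379 CPM. UNC0379 0 hpa replicate 3 (median correlation 0.882) was below both other libraries of its group for 7 of the 8 members. Leaving it out therefore raises the UNC0379 0 hpa means of those 7. For neither library was the share of all transcripts below both others counted. Membership and most calls that rest on these 3 libraries are given with and without them, an alternative chosen after the data were seen. Counts of libraries that do not overlap, sums over members and correlations between members are given with all 30 libraries only. So is the number of transcripts that met the limits under UNC0379. The part of these 3 libraries in the results was not tested beyond that.

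**Figure D1:**
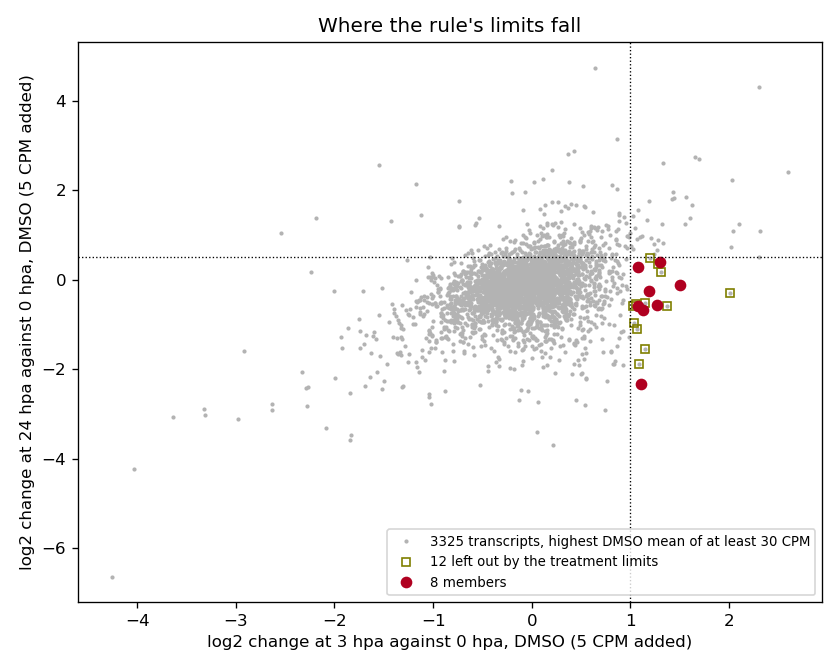
Each point is 1 of the 3325 transcripts with a highest DMSO mean of at least 30 CPM, placed by its log2 change in DMSO at 3 hpa (horizontal) and at 24 hpa (vertical) against 0 hpa, after adding 5 CPM. Dotted lines mark the limits of 1 and 0.5, filled circles are the 8 members, and open squares are the 12 transcripts that met both limits and were left out for their difference under UNC0379.

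The members lay close to the limits that chose them. The highest change at 3 hpa was 1.501 on the log2 scale (Sc4wPfr_149.g26104.t1) and the lowest 1.07 (Sc4wPfr_558.g8176.t1), while the nearest transcript outside, Sc4wPfr_639.g22936.t2, was at 0.98. At 24 hpa the member nearest the limit was Sc4wPfr_137.g27960.t1 at 0.40, and MSTRG.19072.1 lay outside at 0.80. The lowest peak among members was 33.6 CPM (Sc4wPfr_149.g26104.t1), and MSTRG.8055.1 missed the minimum at 28.8 CPM. Of the treatment limits, MSTRG.21881.1 was nearest at 0 hpa (0.99, with MSTRG.15174.2 outside at 1.05) and at 24 hpa (-0.77, with Sc4wPfr_719.g8307.t1 outside at -1.16). The limits held with 5 CPM added. Before that, the 0 hpa means of MSTRG.21881.1 were 30.2 CPM in UNC0379 and 12.8 CPM in DMSO, a difference of over 2-fold. Sc4wPfr_558.g8176.t1 had the largest average difference over 3 to 12 hpa at 0.72, and MSTRG.21701.1 lay outside at 1.23. With limits this near, leaving out 1 library at a time left from 5 to 20 transcripts, and just Sc4wPfr_149.g26104.t1 and Sc4wPfr_715.g30433.t1 stayed members in all 30 such repeats. With the 3 libraries named above left out, 5 of the 8 stayed and 6 transcripts passed in all. The members lost were Sc4wPfr_137.g27960.t1, MSTRG.21881.1 and MSTRG.21998.1.

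In DMSO most of the members did not peak and return at once. The mean was highest at 3 hpa in 6 members, at 8 hpa in Sc4wPfr_20.g15630.t1 and at 12 hpa in MSTRG.23620.1. The median log2 change of the members against 0 hpa at 3, 8, 12 and 24 hpa was 1.16, 1.09, 1.04 and -0.41, where the 3325 transcripts had medians of -0.06, -0.06, -0.04 and -0.13. Levels thus stayed near that of 3 hpa up to 12 hpa in most members and were lower by 24 hpa. Such a course describes the group better than a short pulse. In Sc4wPfr_137.g27960.t1 and MSTRG.21998.1 the 24 hpa mean was still above that of 0 hpa (log2 0.395 and 0.29). Single libraries followed the means. Every 3 hpa library was above every 0 hpa library in 7 of 8 members (10.3% of the 3325), every 8 hpa library in 6 (11.5%) and every 12 hpa library in 5 (13.3%), and every 12 hpa library was above every 24 hpa library in 7 (19.9%). These counts follow from how the members were chosen, since the rule used the 0 and 24 hpa values.

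**Figure D2:**
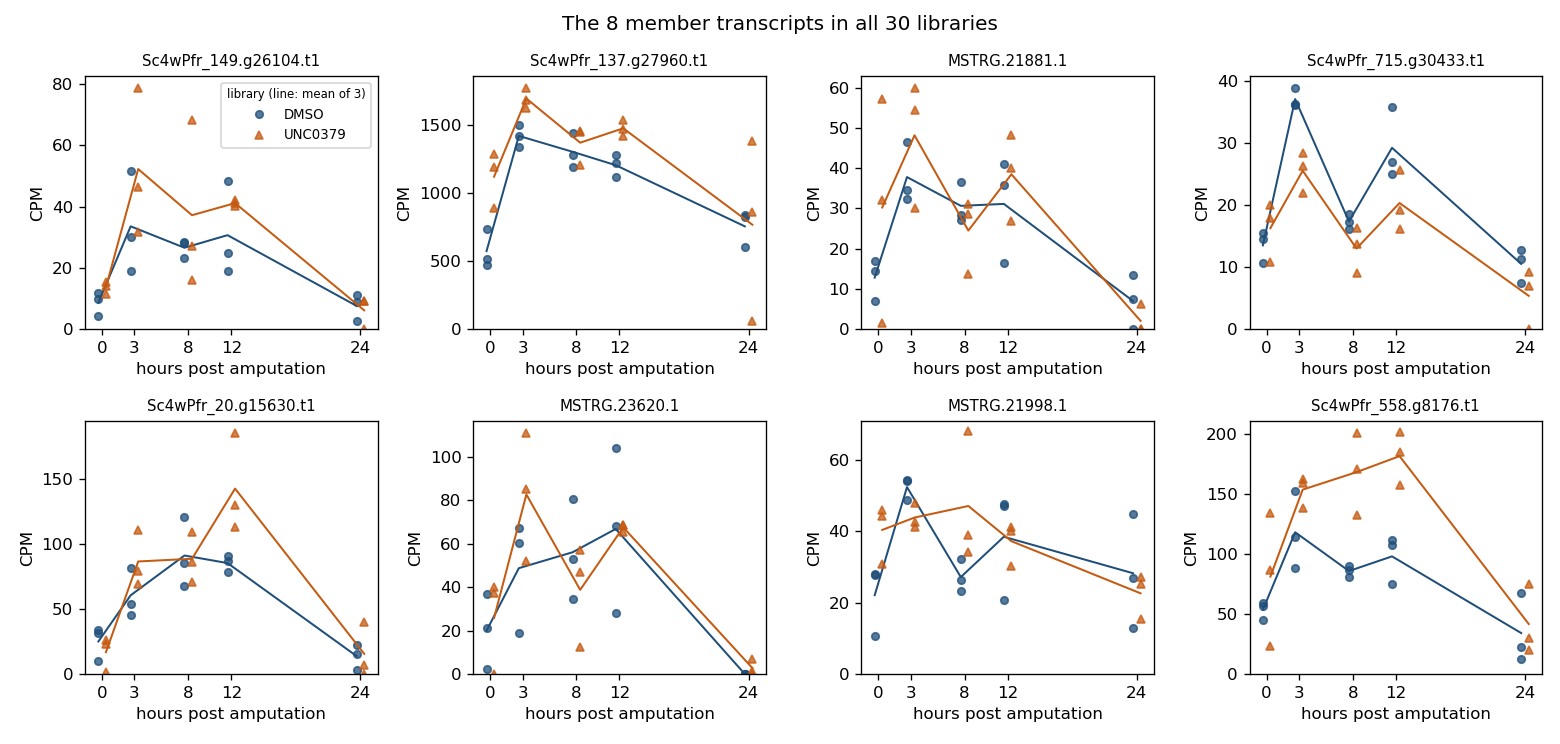
CPM (vertical, from 0) against hours post amputation (horizontal) for the 8 members, 1 point per library, circles for DMSO and triangles for UNC0379, with lines through the means of 3 libraries. In 6 panels the DMSO mean is highest at 3 hpa, and in MSTRG.23620.1 all 3 DMSO libraries at 24 hpa are at 0.

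The plainest course, up at 3 hpa and level until 12 hpa, was that of Sc4wPfr_137.g27960.t1, by far the most abundant member. Its DMSO libraries held 737, 512 and 468 CPM at 0 hpa, then 1419.7, 1497 and 1340.4 at 3 hpa, then 1192, 1438 and 1277 at 8 hpa, then 1114, 1277 and 1221 at 12 hpa, and finally 840.4, 821 and 602 at 24 hpa. All 9 libraries from 3 to 12 hpa were above all 6 at 0 and 24 hpa, and the mean at 3 hpa was 2.48-fold that at 0 hpa. Under UNC0379 the values were 1188, 1283 and 888 CPM at 0 hpa, then 1773, 1626 and 1682 at 3 hpa, then 1204, 1450.1 and 1454 at 8 hpa, then 1419, 1471 and 1535 at 12 hpa, and finally 859, 1379 and 61.3 at 24 hpa. The UNC0379 libraries started higher, with all 3 at 0 hpa above all 3 DMSO libraries, and the mean at 3 hpa was 1.51-fold that at 0 hpa. The share of all transcripts so separated between the treatments was not counted, here or for the members below, so nothing is read from it. This transcript made up 50% to 92.4% of the summed CPM of the 8 members (median 79.2%), so that sums over the members mostly show this 1 transcript.

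Sc4wPfr_149.g26104.t1 had the largest change at 3 hpa, a 3.89-fold higher mean. In DMSO it was counted at 11.8, 4.23 and 9.81 CPM at 0 hpa, then 51.6, 30.2 and 18.9 at 3 hpa, then 23.1, 28.3 and 28.4 at 8 hpa, then 24.8, 18.8 and 48.4 at 12 hpa, and finally 2.49, 8.98 and 11.2 at 24 hpa. Every library from 3 to 12 hpa was above every library at 0 and 24 hpa. Under UNC0379 it ran at 14.0, 11.4 and 15.4 CPM at 0 hpa, then 31.6, 78.8 and 46.5 at 3 hpa, then 27.2, 16.2 and 68.3 at 8 hpa, then 40.3, 42.1 and 41.1 at 12 hpa, and finally 9.16, 9.19 and 0 at 24 hpa. In the inhibitor too there was no overlap between the libraries from 3 to 12 hpa and those at either end, and the means at 3 hpa were 3.89-fold and 3.84-fold those at 0 hpa.

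Sc4wPfr_558.g8176.t1 was the second most abundant member. DMSO libraries gave 44.7, 57.1 and 58.9 CPM at 0 hpa, then 152, 114 and 88.1 at 3 hpa, then 80.9, 86.8 and 90.0 at 8 hpa, then 108, 75.3 and 112 at 12 hpa, and finally 67.3, 22.4 and 12.8 at 24 hpa. The mean was 2.21-fold that of 0 hpa at 3 hpa, 1.60-fold at 8 hpa and 1.83-fold at 12 hpa, with no overlap with 0 hpa. Under UNC0379 there were 134, 86.6 and 23.1 CPM at 0 hpa, then 139, 159.5 and 163 at 3 hpa, then 171, 133 and 201 at 8 hpa, then 202, 185 and 158 at 12 hpa, and finally 29.8, 75.1 and 20.4 at 24 hpa. At 8 and 12 hpa all 3 UNC0379 libraries were above all 3 DMSO libraries, again with no share of all transcripts counted. Among the members this one had the largest treatment differences after the cut (log2 0.93 at 8 hpa and 0.86 at 12 hpa).

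MSTRG.21881.1 was less abundant and had a like course in DMSO, at 14.5, 16.9 and 7.01 CPM at 0 hpa, then 46.5, 32.4 and 34.6 at 3 hpa, then 36.6, 28.3 and 27.1 at 8 hpa, then 16.5, 35.8 and 41.1 at 12 hpa, and finally 7.48, 13.5 and 0 at 24 hpa. The 12 hpa libraries overlapped with those at 0 hpa by 1 library, and those at 3 and 8 hpa did not. Under UNC0379 the 0 hpa libraries were far apart, at 32.0, 57.2 and 1.54 CPM, followed by 59.96, 54.5 and 30.1 at 3 hpa, then 13.6, 28.7 and 31.2 at 8 hpa, then 48.4, 40.2 and 27.0 at 12 hpa, and finally 0, 6.13 and 0 at 24 hpa. No time from 3 to 12 hpa was clear of 0 hpa in the inhibitor series, while 24 hpa was below all of them. The value of 1.54 CPM is 1 count, in UNC0379 0 hpa replicate 3.

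A pair of members had still higher means after 3 hpa in the controls. Sc4wPfr_20.g15630.t1 had 31.5, 33.9 and 9.81 CPM at 0 hpa, then 54.2, 82.0 and 45.6 at 3 hpa, then 67.4, 121 and 85.1 at 8 hpa, then 78.6, 86.6 and 91.0 at 12 hpa, and finally 22.4, 15.7 and 3.20 at 24 hpa. Its mean was 2.42-fold that of 0 hpa at 3 hpa and 3.64-fold at 8 hpa, and the 3 hpa and 8 hpa libraries overlapped. In UNC0379 it was measured at 26.0, 22.9 and 1.54 CPM at 0 hpa, then 69.4, 111 and 79.4 at 3 hpa, then 70.6, 86.1 and 109 at 8 hpa, then 185, 113 and 129.7 at 12 hpa, and finally 0, 39.8 and 6.81 at 24 hpa. Here 12 hpa was highest, with all 3 libraries above all those at 0, 3, 8 and 24 hpa. The lowest 12 hpa library (113 CPM) was close to the highest at 3 hpa (111 CPM). How many of all transcripts had 12 hpa clear of 3 and 8 hpa was not counted.

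MSTRG.23620.1 was the most uneven member. Its DMSO libraries held 36.8, 2.12 and 21.0 CPM at 0 hpa, then 67.1, 60.4 and 18.9 at 3 hpa, then 34.7, 80.8 and 53.0 at 8 hpa, then 68.2, 28.3 and 104 at 12 hpa, and 0 counts in all 3 libraries at 24 hpa. The libraries at 3, 8 and 12 hpa all overlapped with those at 0 hpa, and its place rested on single libraries. Its log2 change at 3 hpa was 1.11, and it was 0.67 without DMSO 0 hpa replicate 2, which held 2.12 CPM, and 0.84 or 0.94 without DMSO 3 hpa replicate 1 or 2. With 0 counts of 1471663 at 24 hpa, and 3 counts over the group as the limit that 0 allows (2.04 CPM, counting error only), the pooled level was at least 11.1-fold lower than at 0 hpa and at least 34.4-fold lower than at 12 hpa. Under UNC0379 the libraries held 40.0, 37.6 and 0 CPM at 0 hpa, then 85.2, 111 and 52.0 at 3 hpa, then 57.1, 12.6 and 46.8 at 8 hpa, then 68.5, 68.8 and 65.5 at 12 hpa, and finally 0, 1.53 and 6.81 at 24 hpa. In both treatments the 24 hpa libraries were below every library from 3 to 12 hpa.

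The remaining pair came closest to a short pulse in DMSO, with means high at 3 hpa, low at 8 hpa and higher once more at 12 hpa. Smaller dips at 8 hpa were also seen in other members. The 8 and 12 hpa means were 0.79 and 0.91 of that at 3 hpa in Sc4wPfr_149.g26104.t1, and 0.73 and 0.83 in Sc4wPfr_558.g8176.t1. The step from 8 to 12 hpa was called in 0 members, as given below. Sc4wPfr_715.g30433.t1 was at 14.5, 10.6 and 15.4 CPM at 0 hpa in DMSO, then 36.1, 38.8 and 36.2 at 3 hpa, then 17.3, 16.2 and 18.5 at 8 hpa, then 26.9, 35.8 and 24.9 at 12 hpa, and finally 7.48, 11.2 and 12.8 at 24 hpa. Replicates agreed closely, each of the first 4 times was clear of the next, and the mean at 8 hpa was 0.468 of that at 3 hpa. In UNC0379 the mean was again highest at 3 hpa and higher at 12 than at 8 hpa, with 20.002, 18.0 and 10.8 CPM at 0 hpa, then 28.4, 26.3 and 21.9 at 3 hpa, then 16.3, 8.97 and 13.7 at 8 hpa, then 16.1, 19.1 and 25.7 at 12 hpa, and finally 6.87, 9.19 and 0 at 24 hpa. All 3 libraries at 3 hpa were lower than the 3 DMSO libraries of that time, with no share of all transcripts counted. This was the 1 member whose means were lower under UNC0379 at each of 3, 8, 12 and 24 hpa.

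MSTRG.21998.1 had 27.6, 10.6 and 28.04 CPM at 0 hpa in DMSO, then 54.2, 53.9 and 48.8 at 3 hpa, then 23.1, 26.2 and 32.1 at 8 hpa, then 47.6, 20.7 and 47.0 at 12 hpa, and finally 44.9, 26.9 and 12.8 at 24 hpa. The 3 hpa libraries stood above all others, and those at 8, 12 and 24 hpa overlapped with 0 hpa. Without DMSO 0 hpa replicate 2 (10.6 CPM) the log2 change at 3 hpa was 0.80, under the limit. In UNC0379 the libraries gave 46.0, 44.1 and 30.8 CPM at 0 hpa, then 41.0, 42.4 and 47.9 at 3 hpa, then 67.9, 34.1 and 39.0 at 8 hpa, then 30.2, 40.2 and 41.1 at 12 hpa, and finally 25.2, 15.3 and 27.2 at 24 hpa. The 3 hpa libraries overlapped with those at 0 hpa, and the means differed by a log2 of 0.11. Of all 8 members in DMSO, this one and Sc4wPfr_715.g30433.t1 were those with every 3 hpa library above every 8 hpa library (7.4% of the 3325).

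The step from 8 to 12 hpa was not used by the rule, and here the fit across all 5046 transcripts gives a test (edgeR's quasi-likelihood test with Benjamini-Hochberg adjustment over all of them). In DMSO, 0 members were called, as were 0% of all transcripts in either direction. The members' log2 fold changes ran from -0.13 in Sc4wPfr_137.g27960.t1 to 0.72 in Sc4wPfr_715.g30433.t1, with a median of 0.20 and SEs of 0.35 to 0.65. The unadjusted p of that fit was under 0.05 in 1 member, Sc4wPfr_715.g30433.t1 (adjusted p = 0.999, edgeR), whose 12 hpa libraries (26.9, 35.8 and 24.9 CPM) were all above those of 8 hpa (17.3, 16.2 and 18.5 CPM). The share of all transcripts with 12 hpa so clear of 8 hpa was not counted, so nothing is read from it. DESeq2 and limma-voom called 0 members too.

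Under UNC0379 the same step gave 0 members called, against 0.337% of all transcripts higher and 0.119% lower. Of the 8, 7 were higher at 12 hpa, from 0.17 to 0.92 on the log2 scale, and MSTRG.21998.1 was at -0.22, with a median of 0.42 and 0 members at an unadjusted p under 0.05. The share of all transcripts that were higher was not counted, and the 8 come from the same 6 libraries, so nothing is read from the 7. Sc4wPfr_20.g15630.t1, at a log2 of 0.73 (SE 0.48), was called once the edgeR fit held just the 6 libraries compared (adjusted p = 0.020), and not with DESeq2 or limma-voom. That smaller fit tested 7 members and called 161 transcripts in all, against 23 in the fit of all 30 libraries. For the difference between the treatments in this step 0 members were called, with 0.0198% of all transcripts higher and 0% lower. The 8 estimates ran from -0.68 (MSTRG.21998.1) to 0.84 (Sc4wPfr_20.g15630.t1), and 0 had an unadjusted p under 0.05 or were called by limma-voom or by DESeq2, which gave an adjusted p to 1 member here. The intervals of 1.96 SE reached from -1.69 to 2.53, and thus held differences of over 2-fold in single members. On simulated counts, 31 of 96 transcripts given a 2-fold change in the same DMSO contrast were called, as were 76 of 94 given a 4-fold one. Those transcripts were drawn from all levels and changed together, while the real DMSO contrast called 0. The shares recovered are thus not those for members with few counts.

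**Figure D3:**
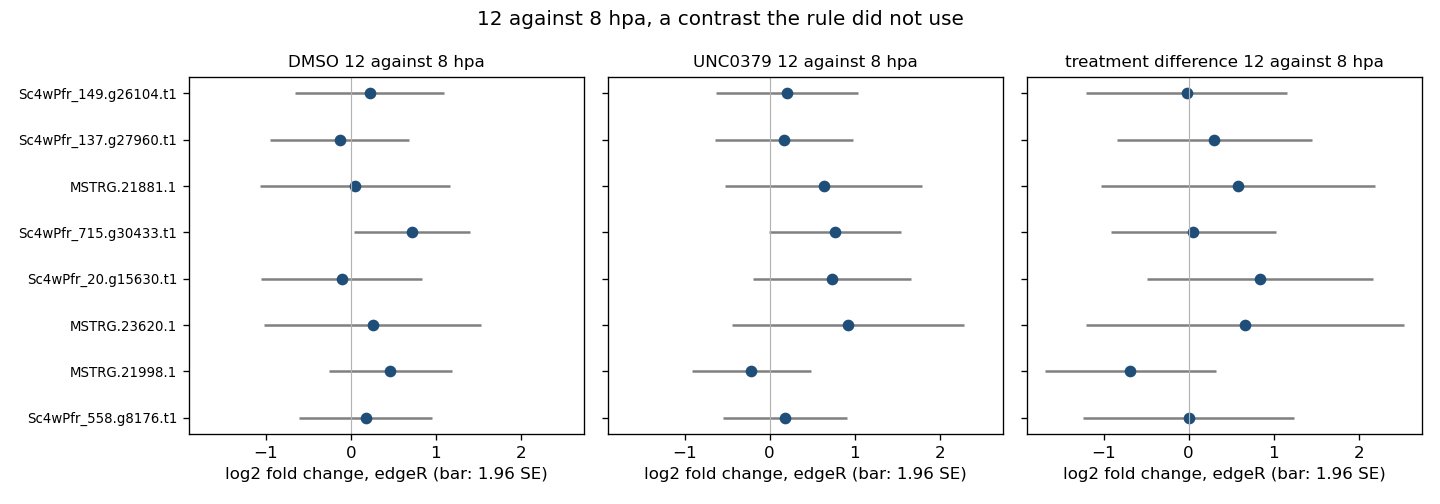
Log2 fold change of 12 against 8 hpa from edgeR (horizontal) for the 8 members in DMSO, in UNC0379 and as the difference between both, with bars of 1.96 SE. The interval of Sc4wPfr_715.g30433.t1 in DMSO is the 1 of 24 that does not hold 0, and 0 members were called in any panel.

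All 8 members met the conditions in DMSO because they were chosen by them, so the number under UNC0379 could only be equal or lower. The same limits on the inhibitor's own values (a highest mean of at least 30 CPM, a log2 change of at least 1 at 3 hpa and under 0.5 at 24 hpa) were met by 109 transcripts. In DMSO these limits were met by 20. Of the 109, 3 were members: Sc4wPfr_149.g26104.t1 (1.62 at 3 hpa), Sc4wPfr_20.g15630.t1 (2.07) and MSTRG.23620.1 (1.51). The other 5 had log2 changes at 3 hpa of 0.11 to 0.88. Without the 3 libraries that stand apart, the 3 members were at 1.69, 1.64 and 1.003, in the same order. The number of all transcripts meeting the limits was not counted without those libraries. With every library, the median over the members at the 4 later times was 0.74, 0.40, 0.75 and -0.81, beside 0.03, 0.10, 0.04 and -0.19 over the 3325. In both series the medians from 3 to 12 hpa were above 0 and that at 24 hpa was below it. Without the 3 libraries that stand apart the medians under UNC0379 at the 4 later times were 0.46, 0.10, 0.47 and -0.93, so that the one at 8 hpa was close to that of all 3325. The DMSO changes were chosen to be large, which bounds the comparison of the 2 series, and no difference is read from it.

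**Figure D4:**
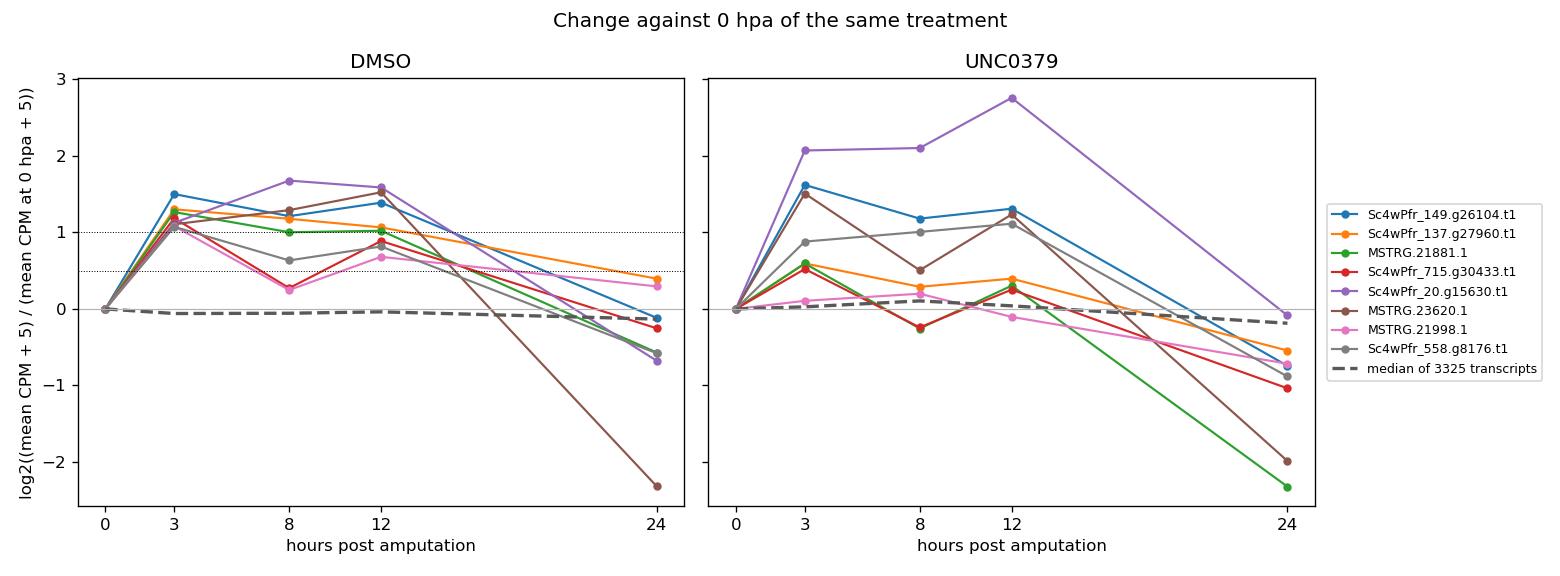
Log2 ratio of mean CPM to 0 hpa of the same treatment, with 5 CPM added (vertical), against hours post amputation (horizontal), for the 8 members and, dashed, the median of the 3325 transcripts; dotted lines mark the rule's limits of 1 and 0.5 in DMSO. In DMSO all 8 lines are between 1.07 and 1.501 at 3 hpa, and in UNC0379 they spread from 0.11 to 2.07.

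Counts of called members are given beside those of all tested transcripts, with nothing read from contrasts that the rule used. In DMSO, 2 members were called higher at 3 hpa than at 0 hpa (0.951% of the 5046), Sc4wPfr_149.g26104.t1 and Sc4wPfr_715.g30433.t1. At 8 hpa 1 was called (2.32%), Sc4wPfr_20.g15630.t1, and at 12 hpa 2 (2.44%), Sc4wPfr_149.g26104.t1 and Sc4wPfr_20.g15630.t1. From 12 to 24 hpa 5 members were called lower (4.04%). These counts differed by whether the 3 libraries were in the fit. Once the 3 libraries were left out, 6 members were called higher at 3 hpa (3.37% of 5226), 4 at 8 hpa (5.07%) and 6 at 12 hpa (5.8%), while 4 were called lower from 12 to 24 hpa (3.46%). For 24 against 0 hpa, 0 members were called with every library (3.71% of all higher and 5.35% lower). Without the 3 libraries 1 was called higher (4.8%), Sc4wPfr_137.g27960.t1 (log2 fold change 0.67, SE 0.16). In that fit the SE of Sc4wPfr_137.g27960.t1 for 3 against 0 hpa went from 0.42 to 0.15.

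In UNC0379, 2 members were called higher at 3 than at 0 hpa (1.74% of all), Sc4wPfr_149.g26104.t1 (log2 fold change 1.84, SE 0.48) and Sc4wPfr_20.g15630.t1 (2.31, SE 0.60). The rule bounded these values through the DMSO change and the treatment limits, so that the counts are a description. All 8 members were higher in the fit with every library, while without the 3 libraries MSTRG.21881.1 (-0.09, SE 0.39) and MSTRG.21998.1 (-0.13, SE 0.35) were on the other side of 0. Leaving out the 3 libraries, 1 was called (1.57%), Sc4wPfr_149.g26104.t1, and Sc4wPfr_20.g15630.t1 had 1 count in UNC0379 0 hpa replicate 3. Leaving out any 1 of the UNC0379 0 hpa libraries also left 1 call, and leaving out UNC0379 3 hpa replicate 2 left 0. Every 3 hpa library was above every 0 hpa library in 6 of 8 members (12.3% of the 3325), every 8 hpa library in 2 (14.3%) and every 12 hpa library in 5 (13.1%).

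The 24 hpa values under UNC0379 were held near the DMSO values by the rule, which bounded the treatment difference at 24 hpa and, on average, over 3 to 12 hpa. The fall to 24 hpa is thus a description here too. Called lower at 24 than at 3 hpa were 6 of 8 (13.5% of all), with log2 fold changes of -1.54 in Sc4wPfr_558.g8176.t1 to -5.34 in MSTRG.23620.1. The other 2 members were Sc4wPfr_137.g27960.t1 (-0.97, SE 0.42) and MSTRG.21998.1 (-0.94, SE 0.42). Against 12 hpa the count was 6 as well (10.2%). In single libraries, every 3 hpa library was above every 24 hpa library in all 8 members (26.3% of the 3325), and every 12 hpa library in all 8 (24.7%). In the fit that omitted the 3 libraries 7 were called lower than at 3 hpa (13.5%) and 5 lower than at 12 hpa (10.1%), and Sc4wPfr_137.g27960.t1 was then at -0.47 (SE 0.16), nearer to 0 than the -0.97 of the fit with the library at 61.3 CPM. In a fit of just the libraries of 3 and 24 hpa 3 members were called. Calls over all transcripts, in either direction, went from 1213 to 166 in that fit.

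Between the treatments at 1 time, 0 of 8 members were called at any of the 5 times in edgeR. At an unadjusted p under 0.05 there were 3 at 0 hpa, 1 at 8 hpa and 1 at 12 hpa, all higher under UNC0379, and 0 at the other times. The share of all transcripts at that unadjusted p was not counted, so nothing is read from these numbers. By adjusted p, 1.17%, 1.61%, 2.26%, 1.33% and 2.08% of all transcripts were called higher under UNC0379 over the times in order, and 2.97%, 5.47%, 6.42%, 4.91% and 5.31% lower. The rule bounded the members' differences, and the median log2 ratio with 5 CPM added over the 5 times was 0.50, 0.34, 0.02, 0.28 and -0.08. The largest of these was at 0 hpa, where 7 of 8 members were higher under UNC0379 and Sc4wPfr_20.g15630.t1 was lower (-0.46). Without the 3 libraries the median at 0 hpa was 0.85, and 3 members were called higher there (4.59%), MSTRG.21881.1, Sc4wPfr_137.g27960.t1 and Sc4wPfr_558.g8176.t1. Sc4wPfr_558.g8176.t1 was then also the 1 member called at 8 hpa (4.23%) and the 1 at 12 hpa (2.62%). Among the libraries left out, UNC0379 0 hpa replicate 3 was below both others of its group in 7 of 8 members. Leaving it out raised their means at 0 hpa, so nothing is read from the 3 calls there. A low DMSO value at 0 hpa helped a transcript into the group, so the difference at 0 hpa is in part set by the choice of members. The UNC0379 tips of 0 hpa were also labelled as treated, so changes under UNC0379 are not taken from an untreated start.

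**Figure D5:**
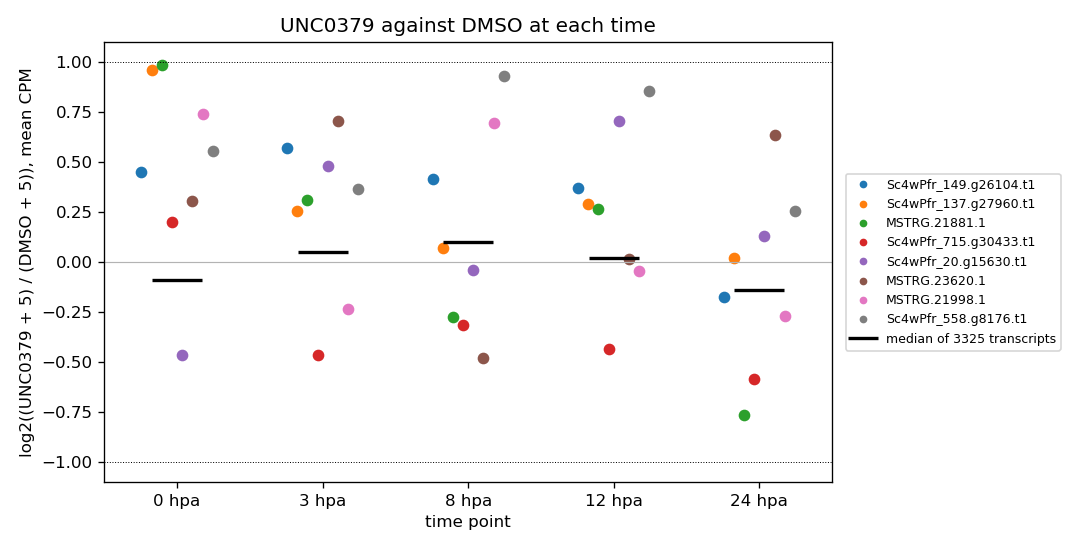
Log2 ratio of mean CPM in UNC0379 to DMSO, with 5 CPM added (vertical), at each time (horizontal), for the 8 members, with a bar at the median of the 3325 transcripts. At 0 hpa 7 of 8 points are above 0, and dotted lines mark 1 and -1, within which the rule kept the members at 0 and 24 hpa.

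How far the change from 0 hpa differed between the treatments is fixed in part by the rule, which asked for a large DMSO change and set limits on the treatment difference at both ends, so that no call is given for it. The group means of the most abundant member show the values involved. Sc4wPfr_137.g27960.t1 had 0 hpa means of 573 CPM in DMSO and 1120 CPM in UNC0379, and 3 hpa means of 1419 and 1694 CPM.

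The 7 members other than Sc4wPfr_137.g27960.t1 were summed to show the level without the most abundant one. In DMSO they summed, over the 5 times in order, to 156 ± 23.5, 388 ± 87.9, 335 ± 52.4, 379.8 ± 83.8 and 101 ± 49.7 CPM (SD, n = 3). Under UNC0379 the sums were 224 ± 123, 493 ± 78.9, 418 ± 95.1, 529 ± 54.2 and 96.2 ± 52.3 CPM (SD, n = 3). In both treatments the sum of every library from 3 to 12 hpa was above that of every library at 0 and 24 hpa. The more abundant members weigh most in such a sum, which does not show that each member had this course. From 0 to 12 hpa under UNC0379 the mean of Sc4wPfr_20.g15630.t1 went from 16.8 to 143 CPM. That of MSTRG.21998.1 went from 40.3 to 37.2 CPM. Correlations of the 28 pairs of members were taken over the 10 group means, as log2 of the mean CPM with 5 CPM added. They ran from 0.52 (Sc4wPfr_20.g15630.t1 with MSTRG.21998.1) to 0.95 (Sc4wPfr_149.g26104.t1 with Sc4wPfr_558.g8176.t1), with a median of 0.80. The pairs share libraries, and the rule asked all members to be high at 3 hpa and low at 0 and 24 hpa.

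Little else was shared. All 8 members were the single transcript of their gene model, as were 93.5% of the 3325 transcripts of that level, and 3 of 8 were of the MSTRG kind against 23.8%. They lay on 5 different scaffolds where the identifier names one. The median of their highest DMSO mean was 59.6 CPM, below the 79.4 CPM of the 3325.

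The 12 transcripts with the same course in DMSO that the treatment limits left out had differed mostly at the ends of the series. At 0 hpa 6 were past the limit, all higher under UNC0379, at 24 hpa 4 were lower and 2 higher, and over 3 to 12 hpa 1 was higher and 1 lower. The most abundant was MSTRG.19631.1, with DMSO means of 560.3, 1252, 897, 788 and 392 CPM over the times in order and 1253, 1630.3, 1488, 1297 and 186 CPM under UNC0379. Sc4wPfr_405.g27534.t1 had the largest change at 3 hpa of the 20, a log2 of 2.01, from 124 to 515 CPM in DMSO and from 392 to 572 CPM under UNC0379. The differences of the 12 past the limits are those that left them out, and nothing is read from them.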

How the data were processed

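3′ mRNA of decapitated *Hydra* tips was measured in 30 libraries (QuantSeq FWD kit). The authors deposited raw counts of reads per transcript, with 1 file for each library and no pooling. Trimmomatic, HISAT2 and HTSeq are listed in the submitters' notes on processing. Their versions, the annotation, the strand setting and the build were not given in the sources used here. In each file 5 summary lines from HTSeq were left out of every total and test (not aligned 16.5% to 98.2% of reads, ambiguous 0.801% to 35.0%, without a feature 0.239% to 13.4%). No molecular identifiers are named, so limits cover counting error only.

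Groups and replicate numbers came from the labels. The label of the dose is 150 µM in one field and millimolar in another, and the first is used. Members and comparisons were chosen with earlier results of these data known. Transcripts passing filterByExpr on the 10 groups were fitted with edgeR 4.0.16 in R 4.3.3 (TMM factors 0.904 to 1.11, robust quasi-likelihood, 1 coefficient per group, all 30 libraries, common biological coefficient of variation 22.6%, Benjamini-Hochberg adjusted p under 0.05). DESeq2 1.42.0 and limma 3.58.1 (voom), other filters and normalizations, fits of the libraries compared, a replicate block and left-out libraries were alternatives. The fit was tested on simulated data. All 8 members are named, each with its value in every library, together with the transcripts nearest the limits and, chosen after their values were seen, 2 of the 12 left out by the treatment limits. No pair of libraries was identical or within counting noise. The per-sample columns not used numbered 0.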

Additional observations from a re-analysis of the deposited data

How the results depend on the processing

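The number of transcripts that the rule chose was 8, and it was 21 with a minimum of 15 CPM and 4 with a minimum of 60 CPM. It ran from 5 to 20 when 1 library was left out. The lowest was without DMSO 24 hpa replicate 3 and the highest without DMSO 3 hpa replicate 3, with 13 without DMSO 0 hpa replicate 1 and 15 without DMSO 0 hpa replicate 3. TMM library sizes gave 9 (6 of them members), 1 CPM added in place of 5 gave 12 (6 members), 10 CPM gave 8 (6 members), and counts summed per gene model gave the same 8. Of members called in UNC0379 at 3 against 0 hpa, 2 became 1 with just the libraries compared and without the 3 libraries that stand apart, and 0 to 2 with 1 library left out. At 24 against 3 hpa, 6 became 3 with just the libraries compared and 4 to 7 with 1 library left out. At 12 against 8 hpa in UNC0379, 0 became 1 with just the libraries compared. In these fits of just the libraries compared, calls over all transcripts went from 233 to 141, 1213 to 166 and 23 to 161, in that order. The causes were not tested. In the contrasts just named, and in DMSO and the treatment difference at 12 against 8 hpa, no other setting moved the count of called members by more than 1.5 times, and the last pair stayed at 0 in all settings run. In contrasts that the rule used, run just with and without the 3 libraries that stand apart, members called higher in DMSO went from 2 to 6 at 3 hpa, from 1 to 4 at 8 hpa, from 2 to 6 at 12 hpa and from 0 to 1 at 24 hpa against 0 hpa, and those higher under UNC0379 went from 0 to 3 at 0 hpa, from 0 to 1 at 8 hpa and from 0 to 1 at 12 hpa. With replicate number as a replicate block, 2, 6, 0, 0 and 0 members were called, as without it, in UNC0379 at 3 against 0 and 24 against 3 hpa and in DMSO, UNC0379 and their difference at 12 against 8 hpa. Deviations of same-numbered libraries correlated at -0.05 to 0.29, over 0.1 in 5 of 12 pairs, so these libraries were not shown to be independent. The labels do not say that the numbers pair the libraries, and the main fit held no block. The 3 libraries that stand apart all carry replicate number 3, and what same-numbered libraries share was not tested. Depth limits the 7 members with medians of 9 to 52 counts.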
